A study of Homo sapiens with 12 samples.

Results

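Oxidative phosphorylation is carried out by 5 protein complexes of the inner mitochondrial membrane. The subunits of these complexes that are encoded in the nucleus were followed here in RCC4 cells, a line from a clear cell renal carcinoma. The genes were chosen by symbol and not by their measured change, but with earlier results of these data known. The symbols were NDUFA, NDUFB, NDUFC, NDUFS and NDUFV genes, SDHA to SDHD, UQCR genes and CYC1, COX4 to COX8, and ATP5F1, ATP5M and ATP5P genes. The rule found 68 genes among the 11963 genes measured, with 28 in complex I, 3 in complex II, 7 in complex III, 15 in complex IV and 15 in complex V. All 68 entered the tests, and no filter on low values was applied. COXFA4 and COXFA4L2 are the current symbols of NDUFA4 and NDUFA4L2, and COXFA4 is counted in complex IV, where its protein is found. COXFA4L2, its paralogue, was placed with it.

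The cells received a non-targeting control siRNA (siNT) or an siRNA against YAP (siYAP) for 2 days. Each siRNA was then combined with the solvent DMSO or with erastin at 1 µM, for 7 hours, which gave 4 groups of 3 arrays. The submitters call the arrays of a group biological triplicates. Erastin blocks the cystine importer and is used to trigger ferroptosis, in which iron drives the peroxidation of membrane lipids. YAP is a transcriptional coactivator of the Hippo pathway. All groups came from a single cell line and all had been transfected, and the sources used here do not say how many siRNA sequences were used. Scan dates and array batches are not given either. In the sample titles each siNT array has a lower leading number than each siYAP array, and the meaning of these numbers is not given. If they follow an order of handling, that order cannot be told apart from silencing. Whether the replicates were transfected separately is likewise not given, and the p-values measure the spread between these arrays.

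Complex I oxidises NADH and complex II oxidises succinate, and both pass the electrons to ubiquinone. Complex III hands them to cytochrome c and complex IV to oxygen, while the proton gradient that complexes I, III and IV build drives ATP synthesis by complex V. Mitochondrial DNA encodes some subunits of complexes I, III, IV and V, and the other subunits are nuclear. In clear cell renal carcinoma, loss of VHL stabilises hypoxia-inducible factors, which are known to shift metabolism away from respiration.

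Levels are log2 signals, on which a difference of 1 is a 2-fold difference. YAP1 lay between 8.47 and 8.65 on the 6 siNT arrays and between 4.18 and 6.21 on the 6 siYAP arrays, so the target was lower on each siYAP array. The highest siYAP value, 6.21, belonged to replicate 2 of siYAP with erastin. Of 16 measured renal and carcinoma-line markers, 11 reached a mean level of 8, among them PAX8 and KRT18, whereas the proximal tubule genes LRP2, CUBN and AQP1 had means of 2.85, 4.55 and 4.29 over the 12 arrays. None of the 8 immune, 8 endothelial and 10 fibroblast and pericyte markers reached 8. The summed levels of these 3 lists over the 12 arrays ran from 35.6 to 37.9, from 34.2 to 36.6 and from 49.1 to 51.6. The renal list summed to 136.5 to 140.5, but single markers moved with silencing. Of the 16 renal and carcinoma-line markers, 7 (43.8%) rose and 2 (12.5%) fell in DMSO, and 5 (31.2%) rose and 2 (12.5%) fell under erastin. The shares of all genes were 18.1% and 15.6% in DMSO and 20% and 14.8% under erastin, and the difference was not tested. EPCAM, an epithelial adhesion protein, went from a mean of 7.86 in siNT to 8.9 in siYAP cells in DMSO, and CA12, a carbonic anhydrase, from 10.16 to 11.2. Of the fibroblast and pericyte markers 2 rose in DMSO and 1 under erastin, of the immune markers 0 and 1, and of the endothelial markers 0 and 0 by limma, with 0 and 0 at an unadjusted p under 0.05. The part of these marker changes in the subunit results was not tested.

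The first question was what YAP silencing did to the subunit genes in cells given DMSO. Most called subunits were modestly higher in siYAP cells, and the few lower ones held the largest fall. Of the 68 genes, 29 rose and 4 fell at an adjusted p under 0.05, and 35 did not pass. Over all genes, 33.7% were called, 18.1% as higher and 15.6% as lower, against 42.6% and 5.88% of the subunit genes. The subunits are abundantly expressed, and abundant genes were called more often. Among the 1930 genes with a mean level of at least 10, 49.0% were called, 27.4% as higher and 21.6% as lower, beside 44.3% and 4.92% of the 61 subunit genes at that level.

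The changes were small. The median change of the subunits was 0.14 on the log2 scale against 0.02 for all genes, and individual changes ran from -0.55 to 0.55. A fold of at least 1.2 was reached by 15 of the 68, and a fold of 2 by 0. The arrays of the 2 groups did not overlap for 37 subunits, 32 of them higher with siYAP and 5 lower, where 45.4% of all genes had groups that did not overlap.

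With erastin present the same comparison gave 35 subunits that rose, 5 that fell and 28 that did not pass. These were 51.5% and 7.35% of the 68, where over all genes 34.9% were called, 20% as higher and 14.8% as lower. Among genes with a mean level of at least 10, 52.6% were called, 27.4% as higher and 25.3% as lower, and of the 61 subunits at that level 54.1% rose and 6.56% fell. The median change was 0.17 against 0.01 for all genes. The arrays did not overlap for 57 subunits, 50 higher and 7 lower, where 45.0% of all genes had groups that did not overlap. The 2 silencing comparisons share no array, but they share the estimate of each gene's spread, so their calls are not independent. In these comparisons 24 subunits rose in both, 4 fell in both and 0 moved in opposite directions. A further 5 rose only in the DMSO test, 11 only in the erastin test, and NDUFV1 fell only in the erastin test. No difference between the 2 silencing responses passed its own test.

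**Figure D1:**
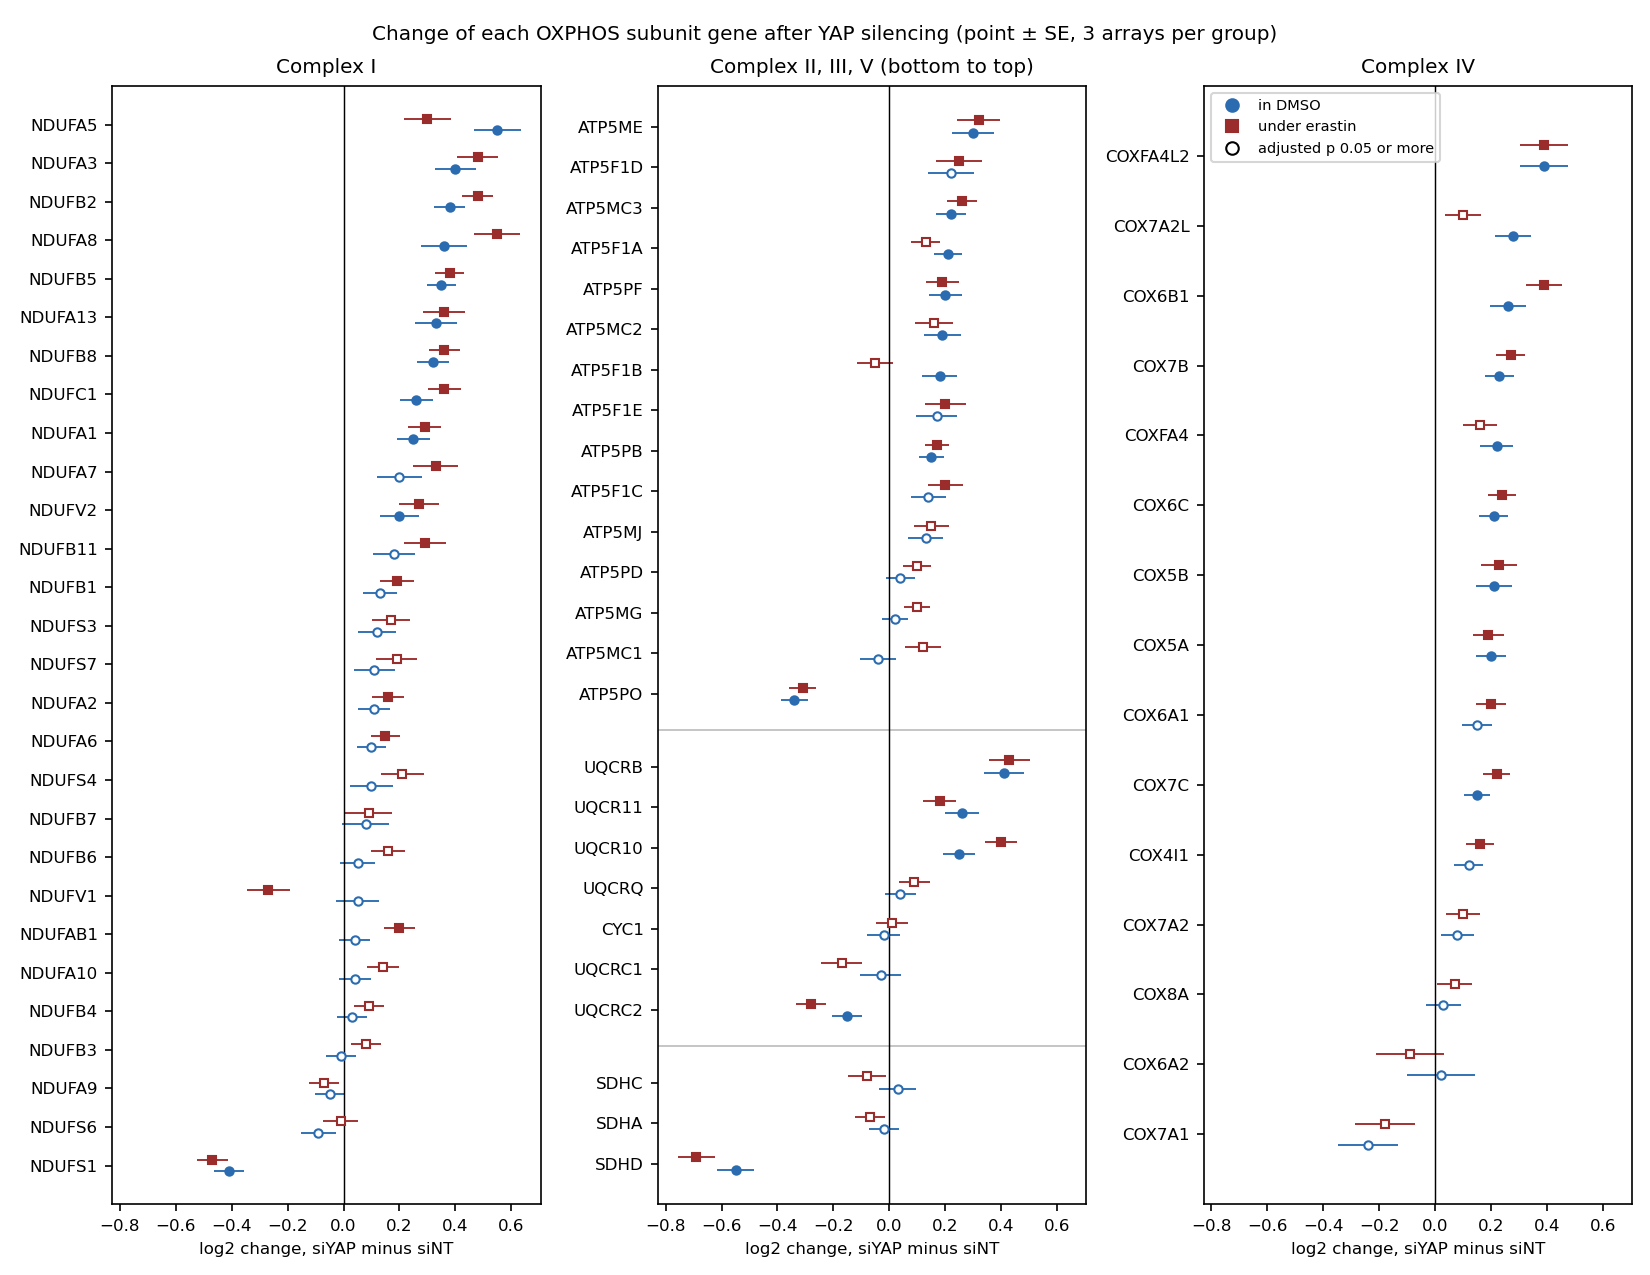
Change of each of the 68 subunit genes with YAP silencing, siYAP minus siNT on the log2 scale, by complex, in DMSO and under erastin; filled symbols have an adjusted p under 0.05 and bars are standard errors (3 arrays a group). Most points lie right of 0, and SDHD, NDUFS1 and ATP5PO lie left of it in both treatments.

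In complex I, the NADH dehydrogenase, 10 of 28 genes rose and 1 fell with silencing in DMSO, and 16 rose and 2 fell under erastin. The genes that rose were mainly accessory subunits, which surround the catalytic core and serve its assembly and stability. Of 23 accessory genes, 9 rose and 0 fell in DMSO, and 15 rose and 0 fell under erastin. Of the 5 core genes, which carry the cofactors or belong to the conserved catalytic part, 1 rose and 1 fell in DMSO, and 1 rose and 2 fell under erastin. The difference between core and accessory genes was not tested.

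NDUFA5, an accessory subunit of the peripheral arm, had the largest rise in DMSO. Its levels were 10.11, 10 and 9.82 in siNT with DMSO, 9.98, 9.98 and 10.22 in siNT with erastin, 10.54, 10.43 and 10.60 in siYAP with DMSO, and 10.40, 10.32 and 10.37 in siYAP with erastin. Each siYAP array lay above each siNT array. The rise was 0.55 ± 0.085 (log2, SE, n = 3 a group; adjusted p = 0.000245) in DMSO and 0.30 ± 0.085 (adjusted p = 0.0143) under erastin. The second value was no longer called when siNT with erastin lacked replicate 1 (adjusted p = 0.0583) or replicate 2 (adjusted p = 0.0519).

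NDUFA8, an accessory subunit on the intermembrane-space side, had the largest complex I rise under erastin. Its levels were 9.77, 9.80 and 9.97 in siNT with DMSO and 10.24, 10.21 and 10.16 in siYAP with DMSO. With erastin they were 9.74, 9.77 and 9.46 in siNT cells and 10.16, 10.24 and 10.22 in siYAP cells. The groups did not overlap in either treatment, and siNT with erastin replicate 3 was the lowest of the 12 arrays. The rise was 0.36 ± 0.082 in DMSO (adjusted p = 0.00388) and 0.55 ± 0.082 under erastin (adjusted p = 0.000178).

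NDUFA3 and NDUFB2, accessory subunits of the membrane arm, rose in both treatments. NDUFA3 measured 11.13, 11.08 and 11.36 in siNT with DMSO, 11.24, 11.28 and 11.09 in siNT with erastin, 11.62, 11.57 and 11.58 in siYAP with DMSO, and 11.69, 11.68 and 11.68 in siYAP with erastin. It rose by 0.40 ± 0.073 (adjusted p = 0.000832) and 0.48 ± 0.073 (adjusted p = 0.00021). NDUFB2 measured 12.27, 12.24 and 12.39, then 12.29, 12.30 and 12.22 in the siNT groups with DMSO and erastin, and 12.72, 12.68 and 12.64, then 12.72, 12.77 and 12.76 in the siYAP groups. Neither gene had a siYAP array below any siNT array. NDUFB2 rose by 0.38 ± 0.055 (adjusted p = 0.000136) and 0.48 ± 0.055 (adjusted p = 2.16e-05).

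The other complex I genes that rose in both treatments were NDUFB5, NDUFA13, NDUFB8, NDUFC1, NDUFA1 and the core gene NDUFV2. Their changes ran from 0.20 (NDUFV2, adjusted p = 0.0499) to 0.35 (NDUFB5) in DMSO and from 0.27 (NDUFV2) to 0.38 (NDUFB5) under erastin. NDUFA13, also known as GRIM-19, measured 0.33 and 0.36. NDUFA7, NDUFB11, NDUFAB1, NDUFB1, NDUFA2 and NDUFA6 passed only under erastin, with rises from 0.15 (NDUFA6) to 0.33 (NDUFA7). The NDUFV2 call in DMSO was lost in 14 of 20 other settings, and those of NDUFA2 and NDUFA6 in 13 and 11. Under erastin the NDUFB1 and NDUFAB1 calls were lost in 4 and 1. NDUFAB1 is the mitochondrial acyl carrier protein, which also serves fatty acid and lipoic acid synthesis.

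NDUFS1, the largest core subunit of the complex and carrier of several iron-sulfur clusters, fell. Its levels were 9.71, 9.74 and 9.76 in siNT with DMSO and 9.76 on all 3 arrays of siNT with erastin. They were 9.35, 9.37 and 9.24 in siYAP with DMSO and 9.22, 9.36 and 9.30 in siYAP with erastin. All 6 siYAP arrays lay below all 6 siNT arrays. The gene fell by 0.41 ± 0.055 (adjusted p = 6.75e-05) in DMSO and by 0.47 ± 0.055 (adjusted p = 2.37e-05) under erastin.

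NDUFV1, the core subunit that binds NADH and FMN, measured 10.71, 10.64 and 10.51 in siNT with DMSO and 10.68, 10.76 and 10.58 in siYAP with DMSO, which overlap. With erastin it measured 10.70, 10.76 and 10.92 in siNT cells and 10.62, 10.47 and 10.48 in siYAP cells, which do not. The change was 0.05 ± 0.077 (adjusted p = 0.667) in DMSO and a fall by 0.27 ± 0.077 (adjusted p = 0.0174) under erastin. The fall was not called without replicate 3 of siNT with erastin, or without replicate 2 or 3 of siYAP with erastin (adjusted p from 0.0638 to 0.0666). NDUFS3 and NDUFS7, the remaining core genes, were not called, at 0.12 and 0.11 in DMSO and 0.17 and 0.19 under erastin.

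Complex II, succinate dehydrogenase, is both a respiratory complex and an enzyme of the tricarboxylic acid cycle. Of its 3 measured genes only SDHD, a membrane anchor that helps bind ubiquinone, changed, and it had the largest fall among the 68. SDHD measured 11.06, 11.03 and 10.91 in siNT with DMSO, 11.05, 10.99 and 11.06 in siNT with erastin, 10.39, 10.37 and 10.58 in siYAP with DMSO, and 10.38, 10.38 and 10.28 in siYAP with erastin. The highest siYAP array, 10.58, lay below the lowest siNT array, 10.91. SDHD fell by 0.55 ± 0.067 in DMSO, a 1.47-fold difference (95% confidence interval of the log2 change -0.70 to -0.41; adjusted p = 3.14e-05). Under erastin it fell by 0.69 ± 0.067, a 1.61-fold difference (adjusted p = 5.02e-06).

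SDHA, the catalytic flavoprotein, measured 10.17, 10.13 and 10.09 in siNT with DMSO and 10.13, 10.14 and 10.05 in siYAP with DMSO. Its change was -0.02 in DMSO (adjusted p = 0.799) and -0.07 under erastin (adjusted p = 0.371). SDHC, the other membrane anchor, changed by 0.03 (adjusted p = 0.833) and -0.08 (adjusted p = 0.428). The siNT and siYAP arrays of SDHA and SDHC overlapped in both treatments. The probe sets used for SDHA and SDHC are of a type that can bind related transcripts.

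In complex III, which passes electrons from ubiquinol to cytochrome c, 3 of 7 genes rose and 1 fell in each treatment. The 3 that rose were among the 4 accessory subunits, without UQCRQ, and the 1 that fell was one of the 2 core proteins. Here core is part of the protein name and does not mean the catalytic part, as it did in complex I. The catalytic gene of complex III measured here, CYC1, was not called. The difference between core and accessory genes was not tested. UQCRB, which lies near the quinone site, measured 11.60, 11.45 and 11.74 in siNT with DMSO and 12.06, 11.95 and 12 in siYAP with DMSO. With erastin it measured 11.69, 11.64 and 11.53 against 12.03, 12.02 and 12.09. Each siYAP array lay above each siNT array. UQCRB rose by 0.41 ± 0.072 (adjusted p = 0.000659) and 0.43 ± 0.072 (adjusted p = 0.000476).

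UQCR10, a small subunit of complex III, measured 11.72, 11.72 and 11.88, then 11.72, 11.80 and 11.79 in siNT cells with DMSO and erastin, and 12.04, 11.98 and 12.06, then 12.14, 12.19 and 12.17 in siYAP cells. UQCR10 rose by 0.25 ± 0.058 (adjusted p = 0.00408) and 0.40 ± 0.058 (adjusted p = 0.000146), without overlap. UQCR11, also a small subunit, measured 11.95, 11.89 and 12.08, then 12.14, 12 and 12.06 in siNT cells, and 12.27, 12.19 and 12.23, then 12.26, 12.21 and 12.28 in siYAP cells. The siYAP arrays were again the higher ones. UQCR11 rose by 0.26 ± 0.060 (adjusted p = 0.00488) and 0.18 ± 0.060 (adjusted p = 0.0306). The second call was lost without replicate 2 or 3 of siNT with erastin, or without replicate 1 or 3 of siYAP with erastin (adjusted p from 0.0596 to 0.104).

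UQCRC2, a core protein of complex III related to mitochondrial processing peptidases, measured 11.10, 11 and 11.08, then 11.16, 11.15 and 11.22 in the siNT groups with DMSO and erastin. In the siYAP groups it measured 10.98, 10.90 and 10.85, then 10.90, 10.87 and 10.93, below each siNT array of the same treatment. UQCRC2 fell by 0.28 ± 0.054 under erastin (adjusted p = 0.0014). In DMSO the fall by 0.15 ± 0.054 had an adjusted p of 0.0497 and lost its call in 12 of 20 other settings (highest adjusted p 0.173). UQCRC1, the partner core protein, changed by -0.03 and by -0.17 and was not called. CYC1, the cytochrome c1 that carries the electron to cytochrome c, changed by -0.02 (adjusted p = 0.869) and 0.01 (adjusted p = 0.959), and UQCRQ by 0.04 and 0.09.

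In complex IV, cytochrome c oxidase, 9 of 15 genes rose and 0 fell in each treatment. All 15 are nuclear genes, and most encode subunits around the catalytic core, which mitochondrial DNA encodes. COXFA4L2 and COX7A2L, relatives of subunits, were counted here by symbol. COXFA4L2, a hypoxia-inducible relative of COXFA4 that is abundant in clear cell renal carcinoma and linked to lower complex I activity, measured 8.34, 8.38 and 8.71 in siNT with DMSO and 8.60, 8.55 and 8.68 in siNT with erastin. It measured 8.92, 8.82 and 8.87 in siYAP with DMSO and 8.95, 9.02 and 9.02 in siYAP with erastin. All 6 siYAP arrays lay above all 6 siNT arrays. The rise was 0.39 ± 0.085 in both treatments (adjusted p = 0.00288 in DMSO and 0.00311 under erastin).

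COXFA4 itself measured 12.37, 12.25 and 12.47 in siNT with DMSO and 12.60, 12.54 and 12.62 in siYAP with DMSO, without overlap. It rose by 0.22 ± 0.060 (adjusted p = 0.0121), a call lost without replicate 2 of siNT with DMSO (adjusted p = 0.0591). Under erastin its levels were 12.47, 12.36 and 12.43 against 12.59, 12.55 and 12.59, a change of 0.16 (adjusted p = 0.0658).

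COX6B1, which faces the intermembrane space and joins the dimer, measured 11.54, 11.46 and 11.72 in siNT with DMSO and 11.85, 11.80 and 11.85 in siYAP with DMSO. With erastin it measured 11.53, 11.54 and 11.45 against 11.89, 11.90 and 11.89. It rose by 0.26 ± 0.065 (adjusted p = 0.00686) and 0.39 ± 0.065 (adjusted p = 0.000454), without overlap. COX7B measured 12.79, 12.75 and 12.89, then 12.82, 12.83 and 12.75 in siNT cells, and 13.07, 12.99 and 13.06, then 13.07, 13.04 and 13.08 in siYAP cells. COX7B, a small membrane subunit needed for assembly, rose by 0.23 ± 0.053 (adjusted p = 0.00449) and 0.27 ± 0.053 (adjusted p = 0.00141). COX5A, COX5B, COX6C and COX7C rose in both treatments too, by 0.15 to 0.21 in DMSO and by 0.19 to 0.24 under erastin. In this order, their calls were lost in 2, 3, 0 and 4 of 20 other settings in DMSO, and in 1, 2, 0 and 0 under erastin.

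Several complex IV subunits come as tissue isoforms. COX4I1, the general form of subunit 4, which takes part in control by ATP, measured 12.84, 12.80 and 12.95 in siNT with DMSO, 12.87, 12.89 and 12.88 in siNT with erastin, 13.01, 12.98 and 12.95 in siYAP with DMSO, and 13.03, 13.03 and 13.04 in siYAP with erastin. Under erastin it rose by 0.16 ± 0.051 (adjusted p = 0.0275), and in DMSO it changed by 0.12 (adjusted p = 0.103). The erastin call was lost without replicate 1 or 2 of siNT with erastin or any 1 array of siYAP with erastin (adjusted p from 0.0516 to 0.0802).

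COX7A2, the widely expressed form of subunit 7A, measured 12.91, 12.85 and 12.93 in siNT with DMSO, 13.01, 12.82 and 12.86 in siNT with erastin, 13.02, 12.92 and 12.99 in siYAP with DMSO, and 12.97, 13 and 13.04 in siYAP with erastin. These groups overlapped, with changes of 0.08 (adjusted p = 0.358) and 0.10 (adjusted p = 0.22). The muscle form COX7A1 lay from 4.13 to 4.71 and the muscle form COX6A2 from 5.08 to 5.72, and neither was called. COX7A1 measured 4.56, 4.47 and 4.56, then 4.23, 4.71 and 4.33 in siNT cells, and 4.2, 4.32 and 4.35, then 4.21, 4.39 and 4.13 in siYAP cells. In DMSO its siYAP arrays were the lower ones, with a change of -0.24 (adjusted p = 0.117).

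COX7A2L, a 7A-related protein that joins complexes III and IV into supercomplexes, measured 11.75, 11.78 and 11.60 in siNT with DMSO and 12, 12 and 11.97 in siYAP with DMSO. It rose by 0.28 ± 0.065 (adjusted p = 0.00441). Under erastin the levels were 11.73, 11.84 and 11.94 against 11.95, 11.90 and 11.97, which overlap, with a change of 0.10 (adjusted p = 0.278).

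In complex V, the ATP synthase, 7 of 15 genes rose and 1 fell in each treatment. ATP5PO, also known as OSCP, the stalk protein that ties the F1 head to the membrane part, was the gene that fell. It measured 12.97, 12.97 and 13.07 in siNT with DMSO, 13.06, 13 and 13.02 in siNT with erastin, 12.64, 12.66 and 12.67 in siYAP with DMSO, and 12.70, 12.75 and 12.70 in siYAP with erastin. All 6 siYAP arrays lay below all 6 siNT arrays. ATP5PO fell by 0.34 ± 0.049 (adjusted p = 0.000124) in DMSO and by 0.31 ± 0.049 (adjusted p = 0.000317) under erastin. The other stalk genes ATP5PB and ATP5PF rose in both treatments, by 0.15 and 0.20 in DMSO and by 0.17 and 0.19 under erastin, and ATP5PD was not called. In DMSO the ATP5PB and ATP5PF calls were lost in 3 and 5 of 20 other settings, and under erastin in 0 and 4.

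ATP5ME, a small membrane subunit linked to dimer formation, had the largest rise in complex V. Its levels were 11.35, 11.28 and 11.54 in siNT with DMSO, 11.41, 11.45 and 11.21 in siNT with erastin, 11.73, 11.67 and 11.67 in siYAP with DMSO, and 11.68, 11.67 and 11.69 in siYAP with erastin. The siYAP arrays were higher without overlap, by 0.30 ± 0.076 (adjusted p = 0.0076) and 0.32 ± 0.076 (adjusted p = 0.00474). The ATP5ME probe set used is of a type that can bind related transcripts. The c-ring, the rotor that protons turn, is built from a protein with 3 genes, and ATP5MC3 rose in both treatments. It measured 12.29, 12.28 and 12.43, then 12.30, 12.31 and 12.33 in siNT cells, and 12.58, 12.51 and 12.57, then 12.57, 12.56 and 12.60 in siYAP cells. The rise was 0.22 ± 0.053 (adjusted p = 0.00617) and 0.26 ± 0.053 (adjusted p = 0.00191). ATP5MC2 rose only in the DMSO test (0.19, adjusted p = 0.0433, lost in 13 of 20 other settings), and ATP5MC1 was called in neither (-0.04 and 0.12).

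Of the F1 head, where ATP is made, ATP5F1A measured 13.18, 13.21 and 13.12 in siNT with DMSO and 13.37, 13.42 and 13.35 in siYAP with DMSO. It rose by 0.21 ± 0.051 (adjusted p = 0.00655). Under erastin its levels were 13.15, 13.18 and 13.26 against 13.34, 13.31 and 13.33, which do not overlap, with a change of 0.13 (adjusted p = 0.0776). ATP5F1B, the catalytic partner, rose by 0.18 in DMSO (adjusted p = 0.0461, lost in 12 of 20 other settings) and changed by -0.05 under erastin (adjusted p = 0.627).

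ATP5F1D, the delta subunit of the central stalk, measured 10.10, 10.07 and 10.38 in siNT with DMSO and 10.43, 10.45 and 10.33 in siYAP with DMSO, which overlap (change 0.22, adjusted p = 0.0591). Under erastin it measured 10.29, 10.18 and 10.08 against 10.46, 10.42 and 10.43 and rose by 0.25 ± 0.082 (adjusted p = 0.0325). This call was lost without replicate 2 or 3 of siNT with erastin or any 1 array of siYAP with erastin (adjusted p from 0.0647 to 0.106).

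ATP5IF1 is not a subunit but the inhibitor that binds the F1 head and stops ATP hydrolysis. It measured 9.16, 9.02 and 9.27 in siNT with DMSO, 9.31, 9.18 and 9.23 in siNT with erastin, 9.50, 9.41 and 9.59 in siYAP with DMSO, and 9.64, 9.53 and 9.68 in siYAP with erastin. It rose by 0.35 (adjusted p = 0.00275) and 0.38 (adjusted p = 0.0015), and each siYAP array lay above each siNT array.

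**Figure D2:**
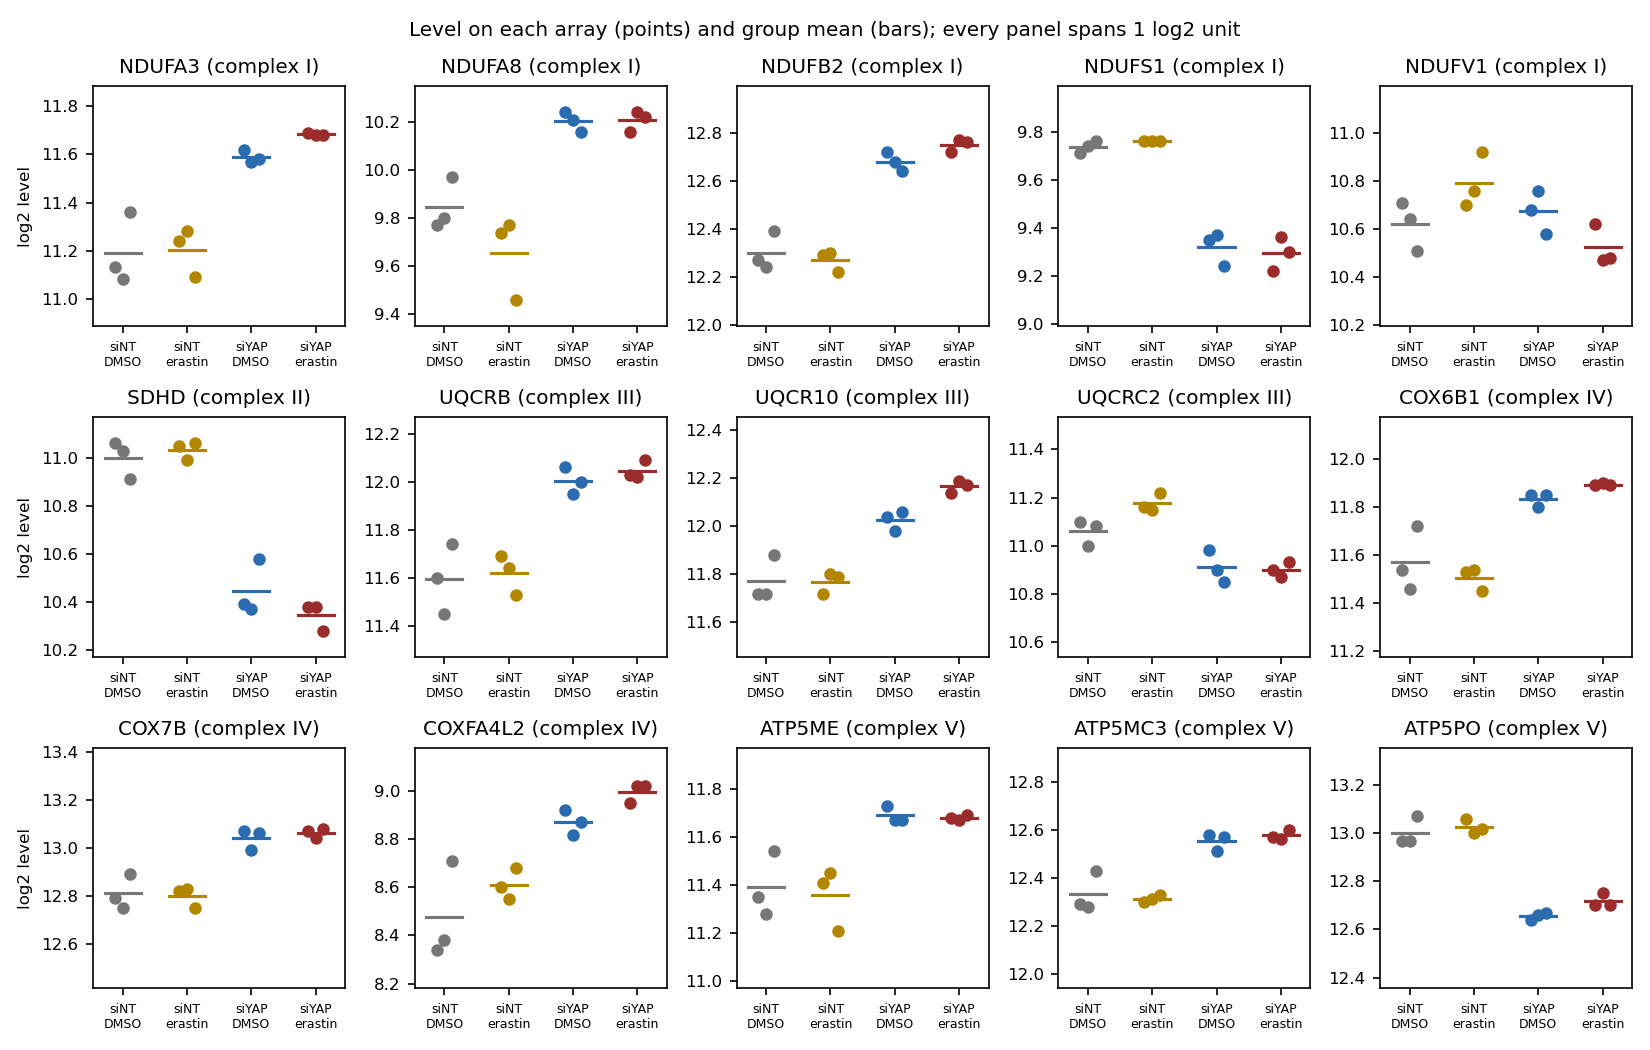
Log2 signal of selected genes on each of the 12 arrays, by group; points are arrays and bars are group means (n = 3). SDHD, NDUFS1 and ATP5PO lie lower on all 6 siYAP arrays than on any siNT array, and UQCRB and COXFA4L2 are higher.

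Averaged over the 68 genes, the level per array was 11.41, 11.36 and 11.50 in siNT with DMSO and 11.45, 11.46 and 11.42 in siNT with erastin. It was 11.57, 11.54 and 11.54 in siYAP with DMSO and 11.58, 11.59 and 11.60 in siYAP with erastin. The siYAP arrays were the higher ones in both treatments, while the mean over all genes was 7.2 to 7.21 in each group. The siNT with DMSO group was the most spread, with an SD of 0.071 against 0.010 to 0.021 in the others, and its replicate 3 was the highest siNT array. The DMSO count of 33 called subunits was 24 without replicate 2 of that group and 42 without replicate 3. The groups of complex II ran the other way, at 10.63 with DMSO and 10.66 with erastin in siNT cells and at 10.44 and 10.38 in siYAP cells, and SDHD was its called gene.

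**Figure D3:**
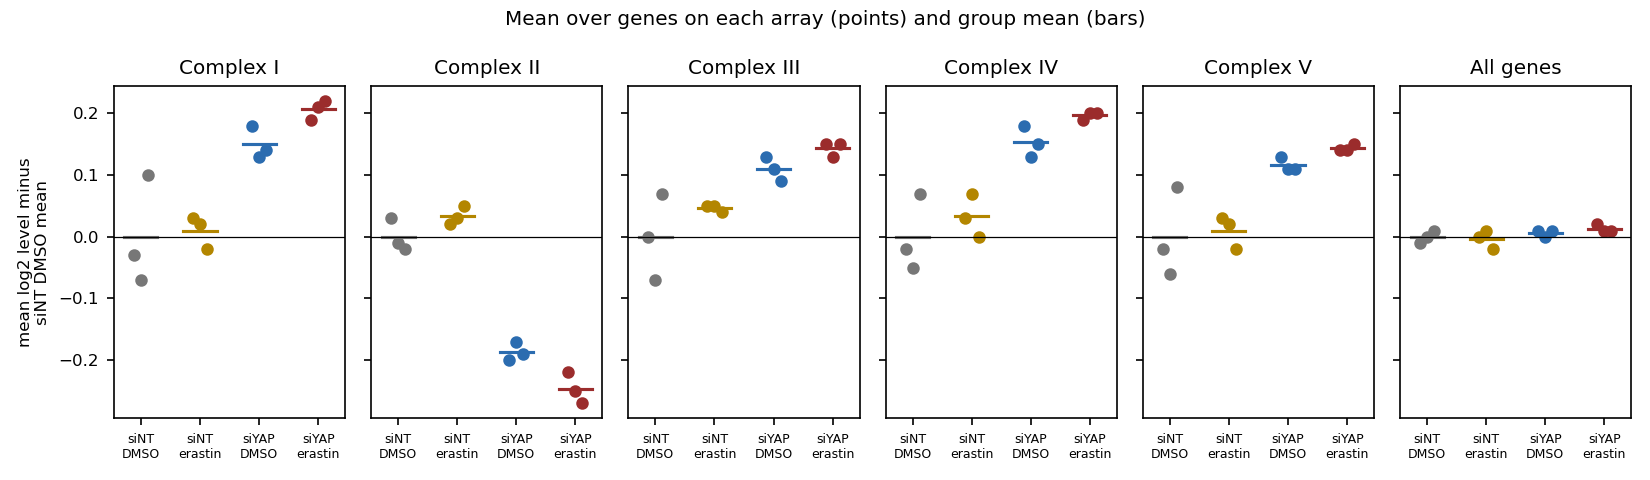
Mean log2 signal over the genes of each complex, and over all genes, on each array, minus the mean of siNT with DMSO; points are arrays and bars are group means (n = 3). The siYAP arrays lie above the siNT arrays in complexes I, III, IV and V, below them in complex II, and at the same level over all genes (group means 7.2 to 7.21).

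The second question was whether 7 hours of erastin changed these genes. None of the 68 was called in siNT cells or in siYAP cells by limma. At an unadjusted p under 0.05 there were 2 and 1, and the smallest adjusted p was 0.435 and 0.421. Over all genes 0.752% were called in siNT cells and 0.334% in siYAP cells. The changes ran from -0.19 to 0.18 in siNT cells, with a median of 0.02, and from -0.16 to 0.14 in siYAP cells, with a median of 0.06, against 0 for all genes in each. The 95% confidence intervals reached from -0.36 to 0.45 in siNT cells and from -0.35 to 0.33 in siYAP cells.

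In siNT cells the arrays with and without erastin were apart for 1 subunit, where 14.4% of all genes had groups that did not overlap. In siYAP cells they were apart for 32 subunits, 28 higher and 4 lower with erastin, where 22.4% of all genes did. The 2 erastin comparisons share arrays with the silencing comparisons. The ratio of 3' to 5' signal of the ACTB control probes, a sign of RNA integrity, also differed between groups. The siYAP with erastin group had a log2 value of 3.54 ± 0.179 (SD, n = 3), where siYAP with DMSO gave 2.59 ± 0.955, siNT with erastin 2.26 ± 0.691 and siNT with DMSO 2.68 ± 0.282. Its part in the results was not tested. The GAPDH control gave 0.169, 0.216, 0.147 and 0.182 in the same order.

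The interaction, which tests whether the response to erastin differed between siNT and siYAP cells and equally whether silencing acted differently in the 2 treatments, called 0 of the 68 by limma. The unadjusted p was under 0.05 for 2 subunits, and the smallest adjusted p was 0.435. Over all 11963 genes 0 were called, and 1179 had an unadjusted p under 0.05. The median SE of a subunit was 0.0858 for the interaction and 0.0606 for a single comparison.

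**Figure D4:**
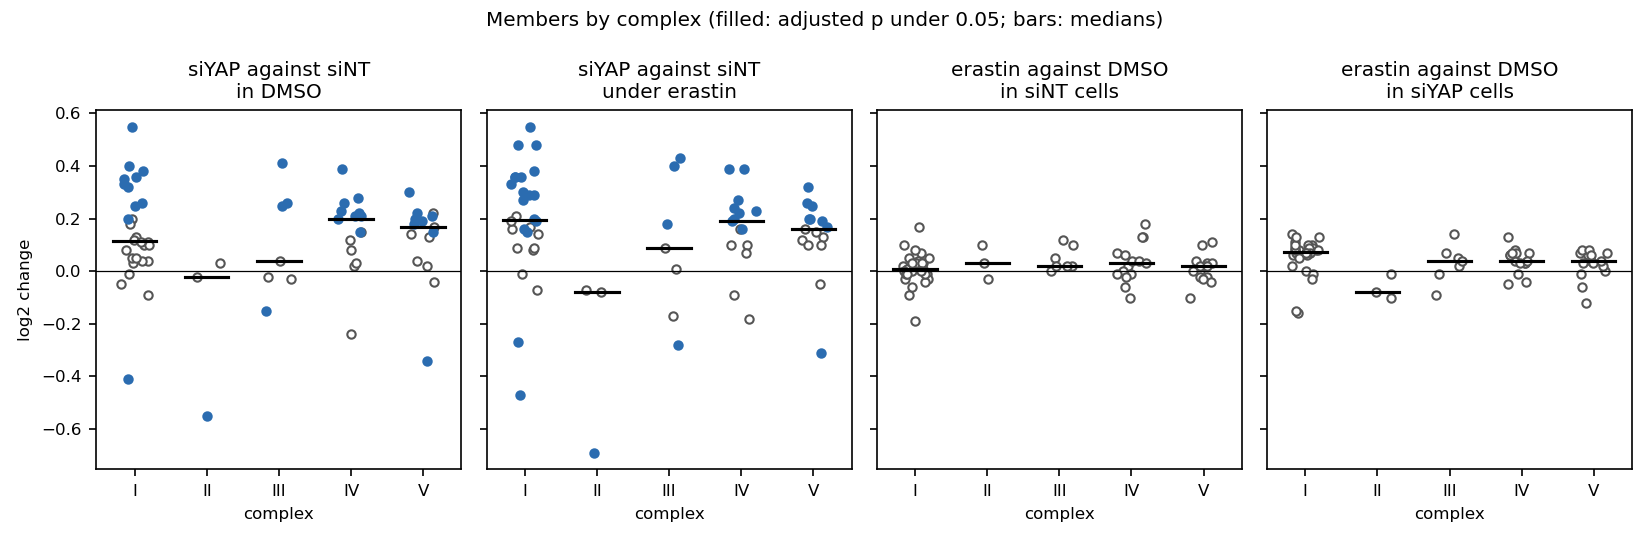
Log2 change of every subunit gene in the 4 comparisons, by complex; points are genes, filled where the adjusted p was under 0.05, and bars are medians. The silencing comparisons spread from -0.69 to 0.55, and both erastin comparisons stay between -0.19 and 0.18 with no filled point.

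Of the 68 genes, 21 had other probe sets on the array, 33 in all. They gave the same sign as the probe set used in 29 of 33 cases in DMSO and 30 of 33 under erastin, and among the 25 with a mean level of at least 8, in 24 and 25. Of called subunits with another probe set, 12 in DMSO and 16 under erastin, another was called in the same direction for 7 and 12 and in the opposite direction for 0. UQCRB rose on its other probe sets by 0.43 and 0.30 in DMSO. UQCRC2 gave -0.23 in DMSO (adjusted p = 0.0719) and -0.50 under erastin (adjusted p = 0.000835) on its second. In the same fit the UQCRC2 probe set used had an adjusted p of 0.0726 in DMSO.

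The second ATP5PO probe set, of a type that can bind related transcripts, gave -0.23 and -0.25 and was not called (adjusted p = 0.185 and 0.141). For 7 subunits the probe set used was of this type too: ATP5ME, ATP5F1C, ATP5MG, COX4I1, COX7C, SDHA and SDHC. The second probe sets of SDHD and NDUFA5 had mean levels of 4.52 and 2.82, with changes of -0.07 and -0.06 in DMSO. Another COX4I1 probe set, with a mean level of 5.73, gave -0.46 in DMSO (adjusted p = 0.00193), against 0.12 on the one used. With the mean of all probe sets of a gene, the calls of NDUFA5 and COX4I1 under erastin were lost (adjusted p = 0.165 and 0.356). NDUFS1 had a single probe set.

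**Figure D5:**
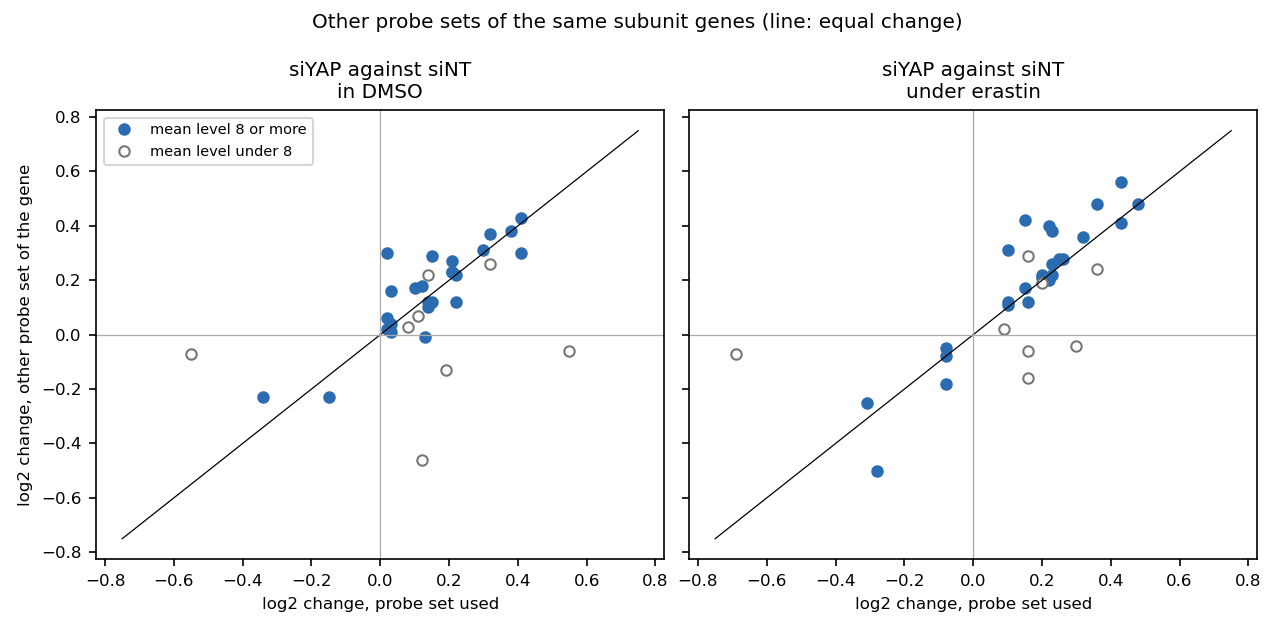
Log2 change with YAP silencing on the probe set used (horizontal) against each other probe set of the same gene (vertical), in DMSO and under erastin; filled points have a mean log2 level of 8 or more, and the line marks equal change. Of the 25 filled points, 24 in DMSO and 25 under erastin share the sign of the probe set used.

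Nuclear respiratory factor 1 (NRF1) and the ETS factor GABPA are known regulators of respiratory subunit genes. Promoter windows from RefSeq (GRCh38.p14), 250 bases before to 50 after the start, were found for 59 of the 68. The NRF1 motif, read on both strands, was in 8 of the 59 (13.6%), against 5.07% of 9563 measured genes and 2.77% of all 35116 windows. The GABPA motif CCGGAAG was in 18 (30.5%), against 17.8% and 10.3%, and the YY1 motif ATGGCGG also in 18 (30.5%), against 10.7% and 5.55%. The NRF1 motif can match both strands at the same place, as in SDHD. A match describes the letters only.

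The motifs occurred in genes that rose and in genes that fell. In DMSO, the NRF1 motif was in 4 of 24 genes that rose, 2 of 4 that fell and 2 of 31 not called. The GABPA motif was in 8, 2 and 8, and the YY1 motif in 6, 2 and 10. The 150 bases before the start are shown for SDHD and ATP5PO, which fell, and for UQCR11 and NDUFA3, which rose. They are written 5′ to 3′ on the gene's strand, with NRF1 and GABPA matches in capitals. The windows are chr11:112086723-112086872 (plus strand) for SDHD, chr21:33915805-33915954 (minus) for ATP5PO, chr19:1605463-1605612 (minus) for UQCR11 and chr19:54102705-54102854 (plus) for NDUFA3.
SDHD: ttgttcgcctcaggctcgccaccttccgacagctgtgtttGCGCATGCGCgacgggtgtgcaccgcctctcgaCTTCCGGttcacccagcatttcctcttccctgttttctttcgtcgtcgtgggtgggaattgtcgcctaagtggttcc
ATP5PO: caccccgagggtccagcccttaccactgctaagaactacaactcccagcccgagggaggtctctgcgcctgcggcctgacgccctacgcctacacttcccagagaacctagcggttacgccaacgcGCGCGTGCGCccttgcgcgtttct
UQCR11: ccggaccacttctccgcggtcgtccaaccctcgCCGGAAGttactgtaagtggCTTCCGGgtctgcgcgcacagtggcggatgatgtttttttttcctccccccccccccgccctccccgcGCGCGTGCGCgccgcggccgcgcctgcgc
NDUFA3: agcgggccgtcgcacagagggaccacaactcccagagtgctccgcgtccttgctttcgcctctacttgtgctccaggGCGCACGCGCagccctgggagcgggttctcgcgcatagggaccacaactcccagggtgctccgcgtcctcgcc

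The SDHD sequence, from the gene with the largest fall, and the UQCR11 sequence, from a gene that rose, both hold NRF1 and GABPA matches. ATP5PO, which fell, and NDUFA3, which rose, hold an NRF1 match and no GABPA match in these bases.

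The transcript of NRF1 itself fell with silencing, by 0.65 (adjusted p = 1.91e-05) without erastin and by 0.39 (adjusted p = 0.00113) with it. The NRF1 gene measured 7.03, 7.19 and 7.08 in siNT with DMSO and 6.36, 6.48 and 6.5 in siYAP with DMSO. Of 21 measured regulators of mitochondrial biogenesis, 6 (28.6%) rose and 5 (23.8%) fell in DMSO, and 9 (42.9%) rose and 6 (28.6%) fell under erastin, where of all genes 18.1% and 15.6%, and 20% and 14.8%, did. PPARGC1A, the coactivator PGC-1alpha, rose by 0.63 in both treatments, and the nuclear receptor ESRRG rose by 0.98 and 1.10, from group means of 5.07 and 5.08 in siNT cells. GABPB1, the partner of GABPA, rose by 0.44 and 0.58 on the probe set used, but the mean of its probe sets gave -0.07 in DMSO (adjusted p = 0.441) and no call under erastin (adjusted p = 0.752). GABPA changed by -0.20 (adjusted p = 0.145) in DMSO and fell by 0.51 (adjusted p = 0.0015) under erastin. TFB1M, a methyltransferase of mitochondrial ribosomal RNA, fell by 0.61 and 0.45. The list's median change was 0.07 and 0.12.

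Assembly factors, which build the complexes without staying in them, included genes that rose and genes that fell. Of 28 measured, 9 (32.1%) rose and 5 (17.9%) fell in DMSO, with a median of 0.14, and 10 (35.7%) rose and 4 (14.3%) fell under erastin, with a median of 0.06. The shares that fell were close to those of all genes, 15.6% and 14.8%. NDUFAF4, needed for complex I, fell by 0.54 and 0.39, and BCS1L, which inserts the Rieske protein into complex III, fell by 0.37 and 0.30. TMEM70, an assembly factor of ATP synthase, rose by 0.51 and 0.62, and UQCC1, of complex III, by 0.49 and 0.40. COX10, which makes heme for complex IV, rose by 0.32 and 0.45. OXA1L, the membrane insertase, rose by 0.45 in DMSO and changed by 0.02 (adjusted p = 0.886) under erastin. SCO2 and COA1, both of complex IV assembly, rose by 0.18 and 0.28 in DMSO and by 0.44 each under erastin. With erastin, SCO2 fell by 0.28 in siNT cells (9.84 to 9.56; adjusted p = 0.0427, a call lost in 15 of 20 other settings), while its siYAP means were 10.02 and 10. The interaction test called 0 of all 11963 genes, so no difference between siNT and siYAP cells is shown for SCO2. The COA1 calls were lost with the mean of its probe sets (adjusted p = 0.183 and 0.125).

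Of 15 tricarboxylic acid cycle and pyruvate dehydrogenase genes, 7 (46.7%) rose and 2 (13.3%) fell in DMSO, and 6 (40%) rose and 1 (6.67%) fell under erastin, with medians of 0.09 and 0.05. DLAT, the acetyltransferase of pyruvate dehydrogenase, fell by 0.85 and 1.06 (adjusted p = 2.32e-05 and 3.59e-06), with 9.49, 9.47 and 9.35 in siNT with DMSO against 8.44, 8.76 and 8.56 in siYAP with DMSO. DLD, PDHB, IDH3G and SUCLG1 rose in both treatments, by 0.30 to 0.54 in DMSO and by 0.26 to 0.56 under erastin. Among 16 carriers and quinone genes, 4 (25%) rose and 2 (12.5%) fell in DMSO, and 5 (31.2%) rose and 0 fell under erastin. Of all genes, 18.1% rose and 15.6% fell in DMSO, and 20% rose and 14.8% fell under erastin. Neither this list nor the tricarboxylic acid cycle list was tested against these shares. Cytochrome c (CYCS) rose by 0.22 and 0.25, and COQ10B, a coenzyme Q binding protein, by 0.67 and 0.63. COQ7, a hydroxylase of coenzyme Q synthesis, fell by 0.52 in DMSO and changed by -0.17 (adjusted p = 0.157) under erastin.

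Of 12 regulators of complexes IV and V and nucleotide exchange genes, 3 (25%) rose and 0 fell in DMSO, and 4 (33.3%) rose and 1 (8.33%) fell under erastin. The shares of all genes were 18.1% and 15.6% in DMSO and 20% and 14.8% under erastin, and the difference was not tested. Besides ATP5IF1, the genes that rose included the ADP/ATP carrier SLC25A4, at 0.24 and 0.26, and HIGD2A, a factor of supercomplex assembly, at 0.21 and 0.23. The phosphate carrier SLC25A3 fell by 0.14 under erastin (adjusted p = 0.048, lost in 13 of 20 other settings). Genes encoded in mitochondrial DNA were not analysed here.

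Other families of protein complexes were set beside the subunits as a description. Of 48 mitochondrial ribosomal protein genes, 8 (16.7%) rose and 3 (6.25%) fell in DMSO, with a median of 0.04, and 16 (33.3%) rose and 2 (4.17%) fell under erastin, with a median of 0.13. The DMSO share that rose was near the 18.1% of all genes. Of 33 proteasome genes, 2 (6.06%) rose and 7 (21.2%) fell in DMSO, and 3 (9.09%) rose and 5 (15.2%) fell under erastin, with medians of -0.08 and -0.01. The shares of all genes were 18.1% and 15.6% in DMSO and 20% and 14.8% under erastin. Of 51 cytosolic ribosomal protein genes 0 were called in either treatment by limma, with 1 and 0 at an unadjusted p under 0.05 and medians of 0.01 and 0.02. The subunit medians were 0.14 and 0.17, and the differences between families were not tested.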

How the data were processed

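RNA from 12 RCC4 cultures in 4 groups, assigned from the sample titles, was measured on single-colour Affymetrix arrays. Per the submitters' processing notes, the authors used RMA and the Affymetrix Expression Console to make the deposited log2 values, and no versions are named. Since RMA equalises the arrays, a shift of all transcripts together is invisible, and fold changes are compressed. The values ran from 2.02 to 14.4, and array medians from 6.49 to 6.52. Array depth has no count, and the number of arrays limits the precision.

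Of 22277 probe sets, 62 were controls, 19065 had 1 gene symbol, 1043 several and 2107 none in the platform annotation, and 19053 of the named ones matched RefSeq. Each gene was read from its single-symbol probe set with the highest mean over the 12 arrays. limma 3.58.1 in R 4.3.3 fitted group means to all 12 arrays (lmFit, eBayes), with Benjamini-Hochberg adjustment over 11963 genes and a threshold of 0.05. On simulated data for silencing in DMSO (11963 genes), 28% of log2 changes of 0.25 and 86% of 0.5 were recovered, and 4.27% of calls were false. The median SE in this comparison was 0.078 over all genes and 0.0606 over the subunits. The recovery of subunit changes in particular was not tested. On the measured arrays the smallest called subunit change in DMSO was 0.15, and COX7A1 at -0.24 was not called.

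The members and lists were chosen with earlier results of these data known. Values per array are given for up to 3 called genes with the largest rise and fall in each complex and comparison, and for the isoform genes and ATP5IF1; from other lists, up to 4 called genes per comparison are named, and others named for their role. The alternatives were other scalings, variance models, array weights, a filter on dim probe sets, the mean of probe sets, fits on 6 arrays, the replicate block, and leaving out each array.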

Additional observations from a re-analysis of the deposited data

Results flagged for a closer look

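For 9 genes every array moved one way with erastin in siNT cells and the opposite way in siYAP cells, measured from the DMSO mean of the same siRNA. The interaction test, which compares the responses directly, called none of them, so no difference between siNT and siYAP cells is shown. The share of all genes with this pattern is not given here. NDUFV1, the NADH-binding subunit, changed by 0.17 in siNT cells and -0.15 in siYAP cells (log2; interaction adjusted p = 0.435). ATP5F1B changed by 0.11 and -0.12 (0.457), NDUFA5 by 0.08 and -0.16 (0.525), and COX7A2L by 0.13 and -0.05 (0.544). The opposite order was seen for NDUFAB1, at -0.09 and 0.07 (0.514), ATP5MC1, at -0.10 and 0.06 (0.593), COX6B1, at -0.06 and 0.06 (0.682), NDUFS6, at -0.06 and 0.02 (0.8), and ATP5MC3, at -0.02 and 0.02 (0.894). The values in parentheses are adjusted p-values of the interaction from limma.

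The response to silencing had such opposite signs on every array for 2 genes. ATP5F1B changed by 0.18 in DMSO and -0.05 under erastin (interaction adjusted p = 0.457), and ATP5MC1 by -0.04 and 0.12 (0.593). These are the same interaction tests, read from the other side.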

How the results depend on the processing

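The counts of called subunits stayed within 1.5 times their value under all alternatives. The 33 called with silencing in DMSO became 27 in a fit on only the 6 arrays compared and 43 with array weights, the extremes among the 10 settings that kept all replicates. The 40 called under erastin ran from 36 to 51 over such settings, with 51 under a trended, robust variance. Leaving out each array in turn gave 24 to 42 and 29 to 46. The erastin and interaction counts of 0 stayed 0 in each setting run. Of the 73 calls of subunit genes, 49 held in the up to 20 settings run for each, 24 were lost in at least 1 and 0 changed direction. Lost in 11 or more settings were UQCRC2, ATP5F1B, ATP5MC2 and NDUFV2 in DMSO and ATP5F1E, NDUFA2 and NDUFA6 under erastin. Of 49 calls of the other genes named, 39 held, 9 were lost in at least 1, and GABPB1 in DMSO turned to -0.07 with the mean of its probe sets. Rescaling the arrays kept the median of all genes between -0.016 and 0.028.

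With the replicate number as a block, 29 subunits were called in DMSO and 37 under erastin, and ATP5F1B, ATP5MC2, NDUFV2 and UQCRC2 in DMSO and ATP5F1D, ATP5F1E, NDUFA2 and NDUFA6 under erastin lost their calls (adjusted p from 0.0552 to 0.0791). Deviations of same-numbered arrays correlated between -0.42 and 0.19 over 18 pairs, 1 of them over 0.1, so the numbers were not taken as pairs; in 6 of 18 comparisons of an array with another group, the same-numbered array correlated best. A count without members read from probe sets that can bind related transcripts was chosen after seeing the data and gave 31 in DMSO and 36 under erastin. With 3 arrays a group, changes near the smallest called, 0.15, are at the limit of detection.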

Other observations

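Further subunits lay on probe sets that the annotation gives to several genes, and these were left out of the counts. ATP5MF shared its probe set with ARMC2-AS1 and had group means of 12.57 with DMSO and 12.56 with erastin in siNT cells, then 12.67 and 12.72 in siYAP cells; the others follow in this order. NDUFS5 shared its probe set with RPL10, at 13.43, 13.41, 13.55 and 13.59. The NDUFS8 probe sets, shared with microRNA genes, read 10.44, 10.45, 10.57 and 10.68 on the brighter one and 9.57, 9.64, 9.70 and 9.90 on the dimmer one. NDUFC2 read 11.88, 11.86, 11.91 and 11.95, and UQCRH, which has a near-identical copy, 12.94, 12.94, 12.98 and 13.02. In each of these the siYAP mean was above the siNT mean of the same treatment. With all probe sets tested together, silencing under erastin was called for ATP5MF (0.15, limma adjusted p = 0.0405), NDUFS5 (0.18, adjusted p = 0.0186) and the brighter NDUFS8 probe set (0.23, adjusted p = 0.0194), and for none of the 6 in DMSO.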
